A study of Mus musculus with 13 samples.

Results

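The genes described here are 10 regulators of oligodendrocyte differentiation: Myrf, Zfp488, Zfp536, Zeb2, Gpr17, Yy1, Chd7, Tcf7l2, Smad7 and Sirt2. They were chosen by name, with earlier results of these data known. They are 10 of the 21951 protein-coding genes in GENCODE release M21, which lists 55450 genes in all. For each of them, the listed H3K4me3 and H3K27me3 peaks within 2 kb of any transcription start site (TSS) or in the gene, and the listed OLIG2 peaks in the gene and within 50 kb of it, were read by stage. Oligodendrocyte precursor cells (OPCs) arise from neural stem cells (NSCs), leave the cell cycle and become newly formed oligodendrocytes (NFOs), which go on to make myelin. That transition is run by transcription factors that switch on myelin genes, by chromatin enzymes, and by proteins that hold back inhibitory WNT, Notch and BMP signals. H3K4me3 marks promoters that are active or ready for use, H3K27me3 is laid down by the Polycomb repressive complex, and a promoter that carries both marks is called bivalent. OLIG2 is a basic helix-loop-helix factor of this lineage that binds E-boxes, short motifs of the form CANNTG.

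The study profiled both histone marks and OLIG2 binding by ChIP-Seq at the 3 stages, and read OLIG2-bound RNA with an IgG control by RIP-Seq. For OLIG2 binding, the lists of OPCs and NFOs were read here, and none of NSCs. Each target has 1 library per cell type and no replicates, so no value below carries an error between animals or preparations, and differences between stages are differences between single libraries. NSCs were bought as cultures from the cortex of E14.5 CD-1 mice and grown with EGF and FGF, although their labels give C57BL/6. OPCs and NFOs were purified without culture from brains of P7 C57BL/6 mice by immunopanning, on a PDGFRα antibody for OPCs and then on GalC hybridoma supernatant for NFOs, after plates that remove microglia and endothelial cells. The labels give no genetic change or treatment for any group, and how many animals were pooled is not given in the sources used here. Stage, mouse strain, age and culture therefore cannot be told apart between NSCs and the other cells. For the 6 histone libraries, title and antibody label name opposite marks, and the title was followed. For the RIP-Seq, the labels give NFOs and the methods give NSCs.

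By H3K4me3 at the promoters of marker genes, the NSC and OPC libraries each had peaks at all 5 NSC markers and at all 5 OPC markers. By the presence of H3K4me3, these markers therefore did not tell those libraries apart. H3K27me3 was also listed at Sox10 in the NSC library (411 bp) and at Pax6 in the OPC library. Markers with H3K4me3 and no H3K27me3 were thus 5 NSC and 4 OPC markers in the NSC library. In the OPC library they were 4 NSC and 5 OPC markers. The NFO library had a peak at 1 of 6 oligodendrocyte markers, Cnp, against 2 of 6 in the NSC and in the OPC library. The NFO library also had peaks at 4 of 5 OPC markers and at 4 of 5 NSC markers. Peaks lay at 1 of 5 microglial markers in OPCs and at 0 of 5 in NSCs and NFOs, at 1 of 4 endothelial markers in each library, and at 3, 2 and 1 of 5 astrocyte markers in NSCs, OPCs and NFOs. Of 5 neuronal markers, 5, 5 and 4 had a peak, and since H3K4me3 marks promoters that are ready as well as active, these counts do not measure the share of neurons. The part of other cells in the values below was not tested.

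A feature of the sequence set some lists apart, and it touches most of the OLIG2 peaks and all of the NSC H3K27me3 peaks at these genes. Of 7384 OLIG2 peaks in OPCs, 71.2% (exact binomial 95% interval 70.1 to 72.2) held a run of at least 10 A or 10 T in a row, against 5.62% and 5.84% of windows of the same width 1 kb to the left and to the right. Of 16911 OLIG2 peaks in NFOs, 70.8% (70.1 to 71.5) did, against 5.75% and 5.82% beside them. Nearly every listed OLIG2 peak has the same width, 230 bp in OPCs and 236 bp in NFOs, with the summit in the middle, so width does not separate them.

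The runs also had a fixed side. On the plus strand of the genome, 98.9% of the A runs in OPC peaks lay left of the summit, at a median distance of 60 bp, and 98.8% of the T runs lay right of it, at 58 bp. In NFO peaks the shares were 98.5% for A runs on the left and 98.1% for T runs on the right, at medians of 59 and 58 bp. Among the histone lists, 92.2% of the 36021 NSC H3K27me3 peaks on the reference chromosomes held such a run (92 to 92.5), against 20% and 19.9% of the windows beside them, and 66.2% of the NSC H3K4me3 peaks did, against 23.5% and 22.7%. The OPC and NFO histone lists lay between 21.7% and 28.2%, with 11.7% to 26.6% beside them. The methods name the DNA SMART ChIP-Seq Kit for the OLIG2 libraries, which primes synthesis from a homopolymer tail that it adds to the DNA fragments, and the labels name an RNA library kit for every sample. For the histone libraries the kit is not given in the methods. Whether library construction bears on these peaks was not tested.

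**Figure D1:**
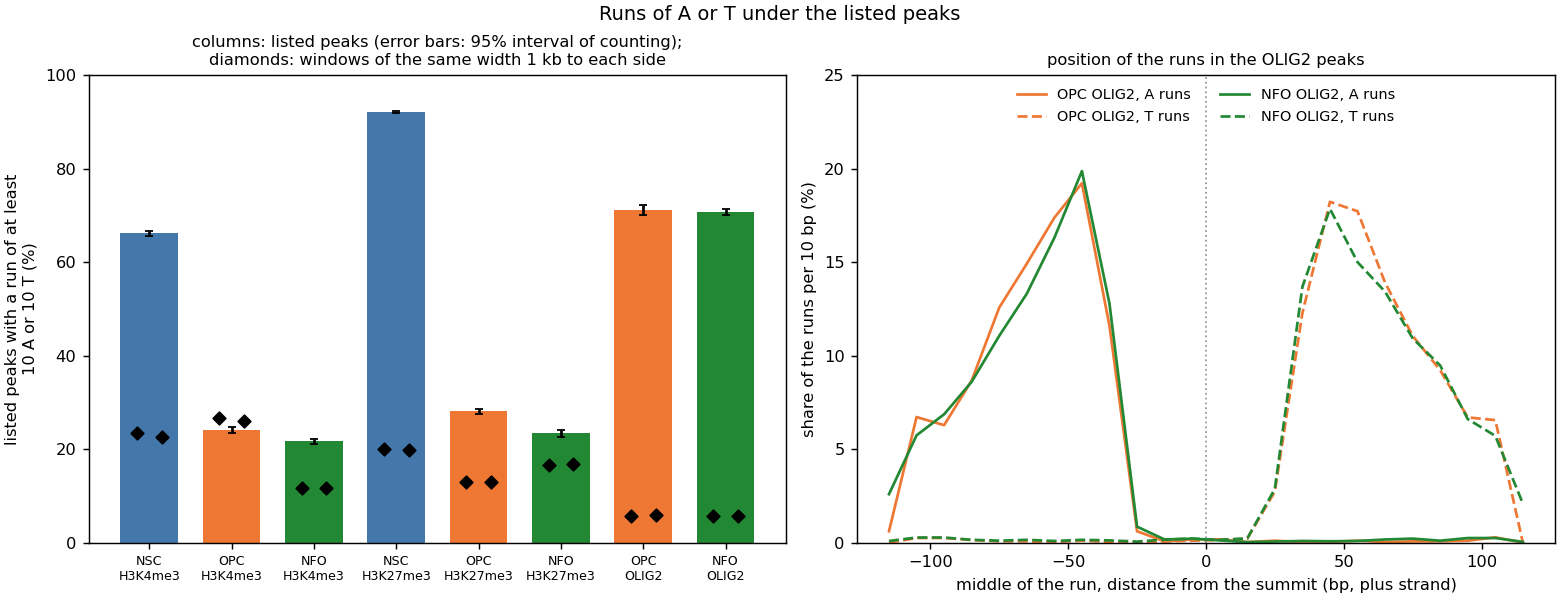
Left, share of listed peaks (%) in each of the 8 libraries that hold a run of at least 10 A or 10 T, with exact binomial 95% intervals, and the same share for windows 1 kb to each side (diamonds). Right, share of the runs (%) per 10 bp against their distance from the OLIG2 peak summit in bp on the plus strand, for A runs (solid) and T runs (dashed) in OPCs and NFOs. The OLIG2 columns stand at 71.2% and 70.8% over diamonds between 5.62% and 5.84%, and the A and T runs form separate humps with medians 58 to 60 bp from the summit.

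At the 10 regulators, 13 of 15 OLIG2 peaks in OPCs (86.7%, 59.5 to 98.3) and 22 of 26 in NFOs (84.6%, 65.1 to 95.6) held a run. The sequences of 4 of them show it. They are the highest peak by fold enrichment at Sirt2, the single peak of NFOs upstream of Myrf, and 2 intronic peaks of Zfp536, the first of which overlaps a peak of the other stage. All sequences are given 5′ to 3′ on the plus strand of mm10, and in the OLIG2 peaks capitals mark runs of at least 10 A or T and E-boxes (CANNTG).
Myrf, NFO, chr19:10265595-10265830: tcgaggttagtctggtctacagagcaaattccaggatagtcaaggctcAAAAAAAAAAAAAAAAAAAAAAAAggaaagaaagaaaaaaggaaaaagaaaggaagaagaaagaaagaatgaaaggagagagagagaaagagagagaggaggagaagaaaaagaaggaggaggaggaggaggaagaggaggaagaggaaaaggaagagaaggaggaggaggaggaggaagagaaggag
Zfp536, OPC, chr7:37625001-37625230: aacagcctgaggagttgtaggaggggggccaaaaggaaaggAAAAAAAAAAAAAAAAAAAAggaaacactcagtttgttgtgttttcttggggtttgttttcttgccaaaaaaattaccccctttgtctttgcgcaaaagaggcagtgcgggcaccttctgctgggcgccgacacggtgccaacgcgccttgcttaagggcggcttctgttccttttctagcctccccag
Zfp536, NFO, chr7:37689370-37689605: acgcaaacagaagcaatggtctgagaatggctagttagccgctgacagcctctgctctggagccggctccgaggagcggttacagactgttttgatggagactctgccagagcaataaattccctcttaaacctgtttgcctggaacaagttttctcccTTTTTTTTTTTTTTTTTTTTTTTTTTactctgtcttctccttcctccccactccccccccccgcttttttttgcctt
Sirt2, NFO, chr7:28832926-28833161: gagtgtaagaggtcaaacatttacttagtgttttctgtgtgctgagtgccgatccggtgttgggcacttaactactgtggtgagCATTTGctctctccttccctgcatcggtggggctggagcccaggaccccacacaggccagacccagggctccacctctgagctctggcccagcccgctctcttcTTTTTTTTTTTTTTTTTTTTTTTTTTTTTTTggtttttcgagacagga

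The run is 24 A long in the Myrf peak of NFOs, 20 A in the Zfp536 peak of OPCs, 26 T in the Zfp536 peak of NFOs and 31 T in the Sirt2 peak. Both Zfp536 peaks and the Myrf peak of NFOs hold no E-box, and in the NFO peak at Myrf the run is followed by repeated A and G up to the end, with the whole peak soft-masked as repeat (100% of 236 bases).

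Peaks without a run were 2 of 15 in OPCs, both at Tcf7l2, and 4 of 26 in NFOs, at Zfp488, Chd7 and Tcf7l2. With the peaks that hold a run left out, 1 of 10 regulators had an OLIG2 peak in the gene or within 50 kb in OPCs, against 15.6% of protein-coding genes, and 3 of 10 in NFOs, against 30%. The following 4 of these 6 peaks are shown because they do not depend on a run and cover each gene and stage that has such a peak. The intronic OPC peak of Tcf7l2 and the intronic NFO peak of Chd7 lie inside the genes, and the other 2 lie upstream.
Tcf7l2, OPC, chr19:55779681-55779910: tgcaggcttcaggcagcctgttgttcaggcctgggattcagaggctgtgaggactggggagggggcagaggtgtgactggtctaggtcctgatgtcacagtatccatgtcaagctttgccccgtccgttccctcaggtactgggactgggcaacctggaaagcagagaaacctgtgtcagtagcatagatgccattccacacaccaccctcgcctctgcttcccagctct
Tcf7l2, NFO, chr19:55707760-55707995: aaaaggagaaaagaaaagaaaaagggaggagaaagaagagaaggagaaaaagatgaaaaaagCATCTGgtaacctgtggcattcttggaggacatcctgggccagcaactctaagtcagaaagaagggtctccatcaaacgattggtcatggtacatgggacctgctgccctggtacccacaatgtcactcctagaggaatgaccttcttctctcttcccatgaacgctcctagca
Chd7, NFO, chr4:8810204-8810439: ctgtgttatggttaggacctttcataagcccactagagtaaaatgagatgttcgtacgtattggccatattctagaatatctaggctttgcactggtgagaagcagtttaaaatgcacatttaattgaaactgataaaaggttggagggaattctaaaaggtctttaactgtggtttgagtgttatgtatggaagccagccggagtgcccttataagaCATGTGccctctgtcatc
Zfp488, NFO, chr14:34015896-34016131: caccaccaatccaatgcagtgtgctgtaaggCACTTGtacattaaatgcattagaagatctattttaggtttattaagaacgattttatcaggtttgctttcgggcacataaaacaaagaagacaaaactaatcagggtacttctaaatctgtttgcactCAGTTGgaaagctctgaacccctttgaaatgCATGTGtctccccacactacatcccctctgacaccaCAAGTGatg

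The Tcf7l2 peak of OPCs holds no E-box, the NFO peaks of Tcf7l2 and Chd7 hold 1 each, CATCTG and CATGTG, and the Zfp488 peak holds 4, of which CACTTG and CAAGTG are complements of each other. At the histone marks, the same feature touched the only H3K27me3 peaks that NSCs had at these promoters. All 3 held a run, as did all 4 NSC H3K27me3 peaks elsewhere in the 10 genes. The 298 bp H3K27me3 peak in the intron of Zfp488 is shown because a bivalent call rests on it, with its run of 15 A in capitals and its E-boxes left in lower case.
Zfp488, NSC H3K27me3, chr14:33977028-33977325: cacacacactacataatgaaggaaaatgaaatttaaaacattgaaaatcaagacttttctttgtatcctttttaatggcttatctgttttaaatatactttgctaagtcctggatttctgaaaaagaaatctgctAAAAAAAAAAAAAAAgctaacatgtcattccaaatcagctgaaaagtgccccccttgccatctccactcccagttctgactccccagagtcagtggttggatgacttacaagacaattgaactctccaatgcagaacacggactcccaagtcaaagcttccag

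In NSCs 9 of the 10 regulators had H3K4me3 at a promoter, in OPCs 10 and in NFOs 9, against 64.3%, 60.7% and 43.6% of protein-coding genes. Gpr17 lacked a peak in NSCs and Myrf lacked one in NFOs. The summed width of the peaks within 2 kb of a TSS had a median over the members with a peak of 4687, 4173.5 and 2052 bp in NSCs, OPCs and NFOs. Over all protein-coding genes with a peak, the median was 2290, 1416 and 644 bp, so the NFO list is made of narrower peaks throughout. Each width was therefore read by its percentile among protein-coding genes with a peak in the same library. In the same order of stages, 6 of 9, 9 of 10 and 9 of 9 members had a summed width above the median of all genes. The sum adds up split peaks and distant start sites. By the widest peak alone, Zfp536 in NFOs stood at percentile 39.9 in place of 60.8, and Sirt2 in NSCs at 52.7 in place of 47.8. By the highest fold enrichment (the enrichment over control that the peak caller gives), 6 of 9, 8 of 10 and 7 of 9 stood above the median of all genes, which was 8.44, 6.5 and 5.02.

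**Figure D2:**
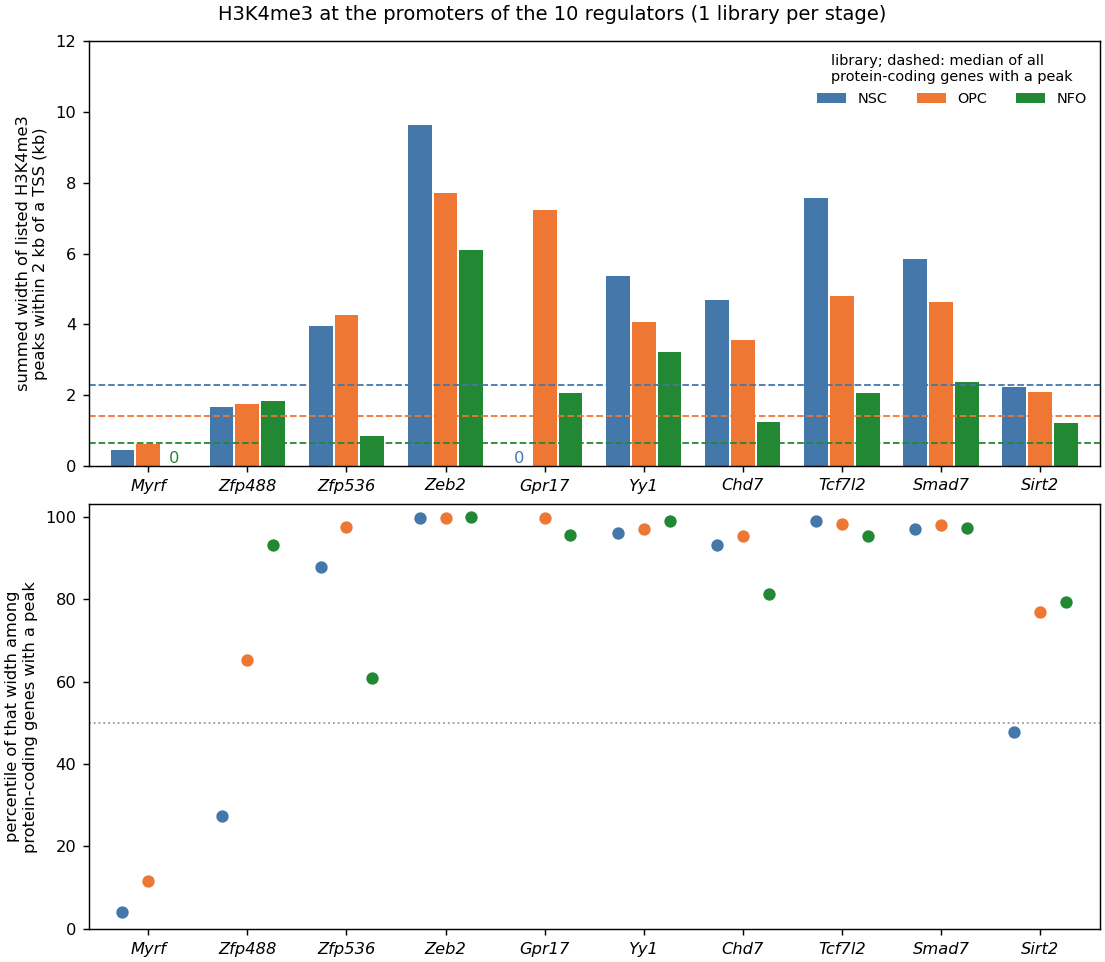
Top, summed width (kb) of the listed H3K4me3 peaks within 2 kb of any TSS for each regulator in the NSC, OPC and NFO libraries, with the median of all protein-coding genes with a peak as dashed lines and 0 where no peak was listed. Bottom, the percentile of each width among protein-coding genes with a peak in the same library. By this summed width, Zeb2, Yy1, Tcf7l2 and Smad7 stayed above the 95th percentile in all libraries, and Zfp488 went from 27.5 in NSCs to 93.1 in NFOs. By the widest peak alone, only Zeb2 stayed above the 95th percentile in all libraries.

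Zeb2 (chr2:44983632-45117395, minus strand, 29 transcripts) encodes a zinc finger and homeodomain repressor that counters BMP and Notch signals in oligodendrocyte precursors. Its H3K4me3 had the greatest summed width of the 10 genes in every library, at 9634, 7709 and 6114 bp from NSCs to NFOs, which are percentiles 99.7, 99.7 and 99.9. The highest fold enrichment fell in the same order of libraries, from 13.2 to 8.24 and 6.78. The domain was not continuous: a gap of 935 bp (NSCs), 2003 bp (OPCs) or 1653 bp (NFOs) split it near the 5′ end. In OPCs and NFOs the edge of the gap nearer the 5′ end lay at a run of 16 A. The 5′ TSS cluster of 26 start sites was K4 only in all stages, that is, it had H3K4me3 and no H3K27me3. The pair of start sites 93.7 kb further into the gene had a narrow peak in NSCs (369 bp) and OPCs (275 bp), each with a run of 10 T, and none in NFOs. Start sites of Zeb2os, an antisense RNA, lay under the peaks of all stages, and the lists cannot assign the mark to 1 of the genes.

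Smad7 (chr18:75367529-75395935, plus strand) encodes the inhibitory SMAD that blocks TGFβ and BMP receptor signalling, and it is a known target of Zeb2. Its promoter carried 5856, 4619 and 2365 bp of H3K4me3 in turn, at percentiles 97, 98 and 97.2. In NFOs the mark was split into 1659 bp and 706 bp by a gap of 2198 bp, and the part at the 5′ end had a fold enrichment of 23.5, the highest promoter value of the 10 genes in any library. The corresponding values were 14.5 in NSCs and 13.3 in OPCs. The start site of the non-coding gene Gm20544 on the other strand lay under the peak in all stages.

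Yy1 (chr12:108792973-108820148, plus strand) encodes a zinc finger factor that recruits histone deacetylases to inhibitors of differentiation. Its H3K4me3 measured 5373, 4074 and 3211 bp in the order of stages, at percentiles 96, 97 and 99. In NFOs it lay on both sides of a gap of 953 bp that held the 5′ end, with fold enrichments of 4.05 and 4.59 against 12.6 in NSCs and 7.89 in OPCs. Chd7 (chr4:8690406-8867659, plus strand), an ATP-dependent chromatin remodeller that works with SOX10, went from 4687 bp to 3572 and 1248 bp, and its percentile from 93.2 to 95.2 and 81.2. In NFOs its mark was an 801 bp peak of fold enrichment 3.52 over the 5′ end and, after 1526 bp, a 447 bp peak of 12.2 with a run of 12 T. Neither Yy1 nor Chd7 had a listed H3K27me3 peak at a promoter in any stage.

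Sirt2 (chr7:28766735-28788661, plus strand) encodes a NAD-dependent deacetylase of tubulin that is abundant in oligodendrocytes and myelin. It had 2229, 2103 and 1200 bp of H3K4me3 in NSCs, OPCs and NFOs, none of it with a run, and its percentile went from 47.8 to 77 and 79.4. The start site of Nfkbib on the opposite strand lay under the same peaks, so the mark belongs to a shared promoter.

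Myrf (chr19:10208272-10240748, minus strand) encodes a membrane-bound transcription factor that is cut free to switch on myelin genes. Its H3K4me3 was the narrowest of the 10 genes where listed, at 454 bp with a fold enrichment of 3.46 in NSCs and 629 bp with 4.22 in OPCs, which are percentiles 4.12 and 11.6 of width. The NSC value lies under the limit of 3.5 that the study's methods set. NFOs had no listed H3K4me3 or H3K27me3 peak at any Myrf start site, a series of states (K4 only, K4 only, none) shared by 2696 protein-coding genes. The NFO list covers the 5′ end of 12.4% of protein-coding genes with H3K4me3, against 54% for the NSC list and 43.8% for the OPC list, and of the 10 genes it covered 6, against 7 and 8. The number of reads behind the lists is unknown, so for Myrf in NFOs the lists show only that no peak was called.

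Gpr17 (chr18:31942997-31949636, minus strand) encodes a G protein-coupled receptor of precursors that have committed to differentiate, and it holds back their maturation. No peak of either mark was listed in NSCs. In OPCs a single H3K4me3 peak of 7223 bp and fold enrichment 6 ran over nearly the whole gene, at percentile 99.6 of width and 39.6 of fold enrichment, so it was broad and not high. In NFOs the promoter peak measured 2066 bp at a fold enrichment of 3.93, and a further peak of 1933 bp and 4.46 lay in the gene body. None of these peaks held an A or T run. The series none, K4 only, K4 only was shared by 49 protein-coding genes, or 0.223%. Gpr17 also had the lowest ratio of observed to expected CpG of the 10 genes in the 500 bp on each side of the 5′ end, 0.21 (percentile 24), against 0.496 to 1.14 for the other 9 and a median of 0.552 over protein-coding genes.

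Zfp488 (chr14:33967070-33978764, minus strand) encodes an oligodendrocyte zinc finger protein that works with OLIG2. Its H3K4me3 had nearly the same width in all libraries, 1652, 1749 and 1832 bp, with fold enrichments of 6.09, 10.6 and 7.01. In OPCs and NFOs the edge of the peak away from the TSS lay at the run of 15 A shown above. The median width over protein-coding genes with a peak was smaller in OPCs and NFOs, and the percentile of Zfp488 went from 27.5 to 65.3 and 93.1. Zfp536 (chr7:37472135-37773641, minus strand), a zinc finger protein of the brain, had 3955 bp in NSCs and 4273 bp in OPCs, at percentiles 87.9 and 97.4. In NFOs it had 833 bp in 3 pieces of 390, 180 and 263 bp, at percentile 60.8, with fold enrichments of 12.7, 3.24 and 11.6.

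H3K27me3 was listed at the promoters of 2 of the 10 regulators in NSCs and of 1 in OPCs and 1 in NFOs, against 15.1%, 16.4% and 9.56% of protein-coding genes. By the states of the study's methods, 7 of 10 were K4 only in NSCs, 9 in OPCs and 8 in NFOs, where 52.1%, 49.5% and 38.9% of protein-coding genes were. Bivalent genes were 2 of 10 in NSCs, Zfp488 and Zfp536, and 0 of 10 in OPCs and in NFOs, against 5.29%, 2.99% and 1.56% of protein-coding genes. Zfp488 and Zfp536 went from bivalent to K4 only and stayed so in NFOs, as did 310 of the 1162 protein-coding genes that were bivalent in NSCs (26.7%). The paper itself shows Zfp488 as an example of this change.

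The bivalent calls rest on H3K27me3 peaks under 1 kb, in a list whose median peak was 341 bp wide. At Zfp488 the peak of 298 bp and fold enrichment 4.64 overlapped the H3K4me3 peak by 249 bp at its far edge from the TSS. At Zfp536 the peaks measured 598 bp at 7.22 and 327 bp at 4.96 and overlapped H3K4me3 by 517 and 327 bp. By summed width, Zfp488 had 298 bp (percentile 19.1) and Zfp536 had 925 bp (percentile 56.5). The median over protein-coding genes with an H3K27me3 peak at a promoter in NSCs was 745 bp of summed width and a highest fold enrichment of 3.79. By highest fold enrichment, Zfp488 stood at percentile 76.6 and Zfp536 at 97.8. All 3 peaks held a run, of 15 A at Zfp488 and of 17 A and 11 T at Zfp536. With peaks under 1 kb that hold a run left out, neither gene was bivalent and both were K4 only in all stages, while the share of protein-coding genes with H3K27me3 at a promoter in NSCs went from 15.1% to 6.87% and the share that was bivalent from 5.29% to 3.04%.

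Tcf7l2 (chr19:55741820-55933654, plus strand, 22 transcripts), an effector of WNT signalling that also takes part in oligodendrocyte maturation, had separate marks at its 2 clusters of start sites. The 11 start sites at the 5′ end were K4 only in all stages, with fold enrichments of 16.8, 11.4 and 17. The 6 start sites that begin 152 kb further in, where transcripts lack the first exons, changed state. In NSCs H3K4me3 was listed at them (2872 bp at a fold enrichment of 6.93, and a further 274 bp at 6.16) and no H3K27me3, although the peaks did not cover all 6 start sites. In OPCs an H3K27me3 peak of 3654 bp and 6.16 covered the same stretch, with 715 bp of H3K4me3 at 4.63 inside it. In NFOs a 628 bp H3K27me3 peak at 2.95, under the limit of the methods, was left and no H3K4me3. The cluster was thus K4 only, bivalent and K27 only in turn, and the gene as a whole was K4 only and then mixed, a series shared by 215 protein-coding genes (0.979%).

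**Figure D3:**
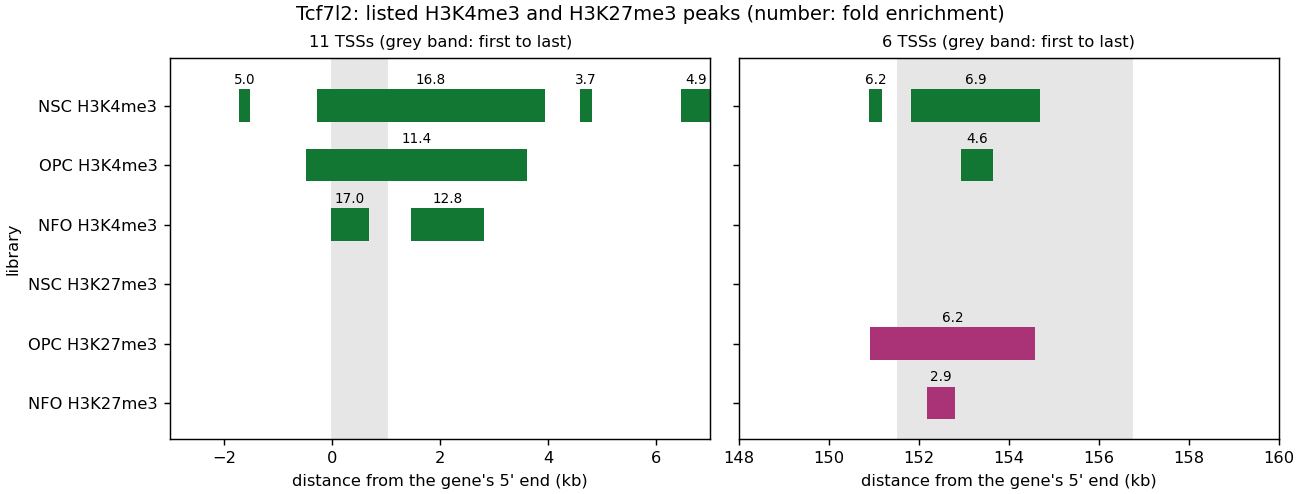
Listed H3K4me3 (green) and H3K27me3 (purple) peaks of Tcf7l2 in the NSC, OPC and NFO libraries against the distance from the gene's 5′ end (kb), at its 5′ start sites (left) and at the 6 start sites 152 kb further in (right), with each peak's fold enrichment. H3K4me3 stands at the 5′ start sites in all libraries, and at the internal ones the 2872 bp H3K4me3 peak of NSCs faces the 3654 bp H3K27me3 peak of OPCs.

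The OPC peak at the internal start sites stands out from the other H3K27me3 peaks of these genes in that it was wide: at 3654 bp it lay at percentile 86.1 of summed width in its list. Every listed peak at the internal start sites held a run, of 13 to 24 T. With peaks under 1 kb that hold a run left out, the 3654 bp peak of OPCs and the 2872 bp H3K4me3 peak of NSCs were kept, the gene stayed mixed in OPCs, and the 715 bp H3K4me3 peak of OPCs and the H3K27me3 peak of NFOs dropped out, so that Tcf7l2 was K4 only in NFOs. Read from the 5′ end alone, Tcf7l2 was K4 only in all stages, so which start sites count decides its state.

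OLIG2 peaks were listed in the gene or within 50 kb for 7 of the 10 regulators in OPCs and for 9 of 10 in NFOs, against 42.3% and 65.1% of protein-coding genes. In the gene itself, 5 had a peak in OPCs and 4 in NFOs, against 13.7% and 23.9%. These shares were not adjusted for gene length, and a longer gene has more room for a peak. The 4 in NFOs, Zfp536, Tcf7l2, Chd7 and Zeb2, are 302, 192, 177 and 134 kb long. The 5 in OPCs include Smad7 and Sirt2, of 28.4 and 21.9 kb. The 10 windows cover 1932.7 kb and held 15 peaks in OPCs and 26 in NFOs, or 0.776 and 1.35 per 100 kb, where the windows of all protein-coding genes held 0.428 and 0.914. Of the 15 and 26 peaks, 13 and 22 passed the limits of the study's methods (for OLIG2, a fold enrichment above 5). The NFO peaks made up 63.4% of the peaks at the 10 genes (exact binomial 95% interval 46.9 to 77.9) and 69.6% of both lists together. That interval is wide and includes the share of the lists, and why NFOs had more peaks was not tested. A single OPC peak of 15 overlapped an NFO peak, against 14.3% of all OPC peaks. Yy1 had no OLIG2 peak within 50 kb in either stage.

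**Figure D4:**
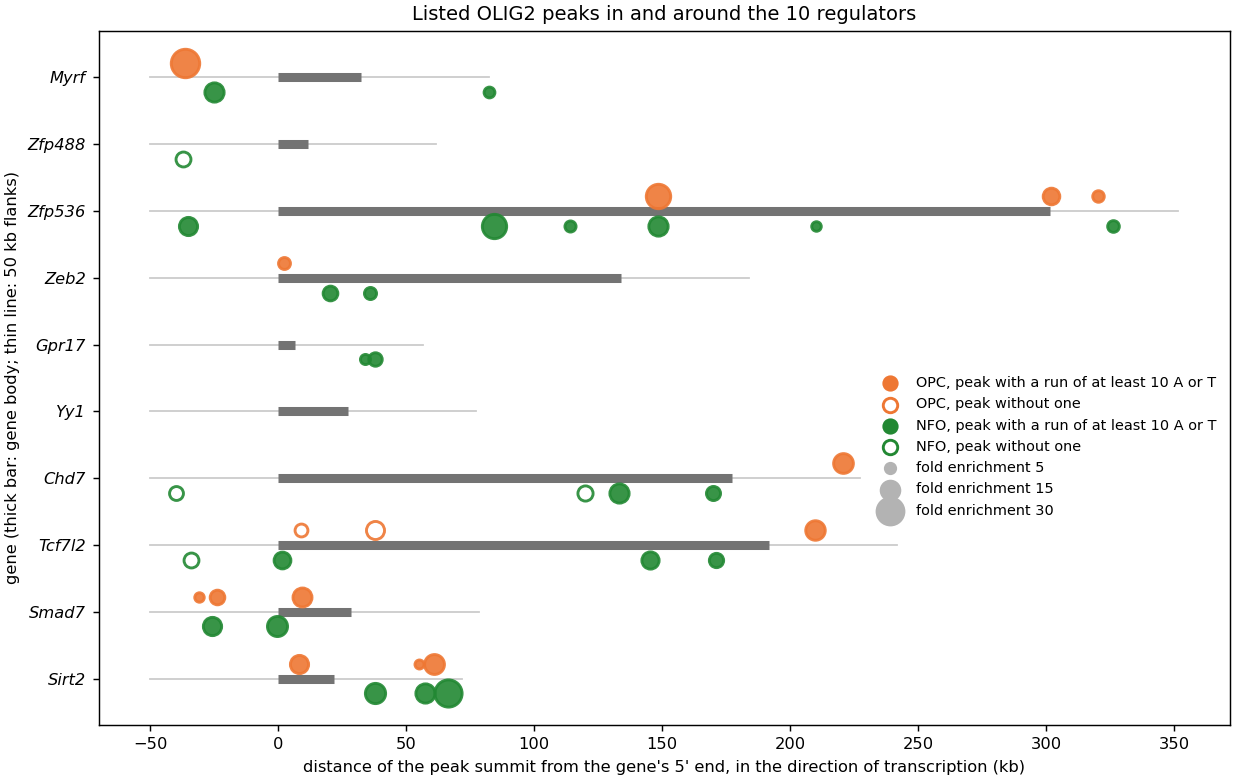
Listed OLIG2 peaks in and around the 10 regulators: each circle is a peak summit at its distance from the gene's 5′ end (kb, in the direction of transcription), above the line for OPCs and below it for NFOs, with an area that grows with fold enrichment. Filled circles hold a run of at least 10 A or T (13 of 15 in OPCs and 22 of 26 in NFOs), open circles do not, and the pair at the same place in Zfp536 is the single peak shared by both stages.

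Of the transcription factors, Zfp536 and Tcf7l2 had the most OLIG2 peaks. Zfp536, at 302 kb the longest of the 10 genes, had 3 in OPCs and 6 in NFOs, or 0.747 and 1.49 per 100 kb. Of the 6 NFO peaks, 4 passed the study's limits. The other NFO peaks of this gene had fold enrichments of 3.51 and 4.73. Its shared peak lay in an intron 149 kb from the 5′ end, with a fold enrichment of 22.9 in OPCs and 14.3 in NFOs, and the highest of its NFO peaks, at 22.7, lay in an intron 84.2 kb in. Each of these places also had an H3K4me3 peak in every stage, far from any annotated start site. At the shared place it measured 1384, 281 and 288 bp with fold enrichments of 10.4, 13.1 and 12.9, and at the other it measured 581, 279 and 257 bp with 7.93, 15 and 7.6. The NSC H3K4me3 peaks at both places held the same run of 20 A or 26 T as the OLIG2 peaks. Those of OPCs and NFOs held no run of 10, but at both places they stopped at the edge of that run. Zeb2 had 1 OPC peak, 2.12 kb into the gene at a fold enrichment of 5.48 with a run of 16 A, and 2 NFO peaks at 20.1 and 36.1 kb, of 8.32 and 5.62.

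Tcf7l2 had 3 OLIG2 peaks in OPCs and 4 in NFOs, at different places. The OPC peaks lay 9.01 and 38 kb into the gene, at fold enrichments of 6.34 and 12.5 and without a run, and 17932 bp past its end, at 14.6. The NFO peaks lay 33.9 kb upstream (8.49, without a run) and 1.59, 145 and 171 kb into the gene (10.8, 11.4 and 7.85, each with a run). None was on the internal start sites that changed their histone marks. Chd7 had 1 peak in OPCs, 43216 bp past its end at 15, and 4 in NFOs, of which those 39.9 kb upstream (7.4) and 120 kb into the gene (8.8) held no run.

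Myrf had no OLIG2 peak in the gene in either stage. In OPCs its single peak lay upstream, in the body of another gene, with a fold enrichment of 31.1 and a run. In NFOs a peak of 14.2 lay 25 kb upstream, in Dagla, which encodes a diacylglycerol lipase, and 1 of 4.49 lay 82.5 kb from the 5′ end, past the other end of the gene. The upstream peaks of the 2 stages did not overlap. Zfp488 had no OPC peak and 1 NFO peak, 37.2 kb upstream at 8.52, inside the annotated genes Gm30083 and Gm5460.

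Of the genes that act on signals and on the cytoskeleton, Smad7 and Sirt2 had the most OPC peaks for the length of their windows, with 3 each, or 2.34 and 2.46 per 100 kb. At each of them, 2 of the 3 passed the study's limits. At Smad7 the OPC peaks lay 30.9 and 23.9 kb upstream (3.45 and 8.23) and 9.38 kb into the gene (13.8), and the NFO peaks 25.8 kb upstream (12.8) and 439 bp before the 5′ end (15.5). That last peak was the nearest of all 41 to a 5′ end, and it lay on H3K4me3 in all stages. At Sirt2 the OPC peaks lay 8.12 kb into the gene (12.7) and 55.2 and 60.7 kb from the 5′ end, in Hnrnpl (3.13) and Ech1 (15.2). The NFO peaks lay 37.7, 57.3 and 66.3 kb from it, at 15.7, 14.2 and 28.4, the last in Lgals4. Gpr17 had no OPC peak, and its 2 NFO peaks, of 3.92 and 6.95, lay 34.1 and 37.7 kb from the 5′ end, the second at Sft2d3. All peaks at Smad7, Sirt2 and Gpr17 held a run.

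Of the 15 OPC peaks, 3 (20%, 4.33 to 48.1) overlapped H3K4me3 of the same stage, against 12.6% of the OPC list. Of the 26 NFO peaks, 6 (23.1%, 8.97 to 43.6) did, against 8.23% of the NFO list. All 6 held an A or T run. They include intronic peaks of Zfp536 with fold enrichments of 3.51 (under the limit of 5), 14.3 and 22.7. The others lay at Gpr17, Tcf7l2 and Smad7, so peaks of 1 gene weigh on this share. None of the 15 and none of the 26 overlapped H3K27me3 of the same stage, which allows shares of up to 21.8% and 13.2%, against 10.5% and 2.44% of the lists. An E-box, searched for on both strands, was found in 8 of the 15 OPC peaks (53.3%, 26.6 to 78.7) and in 18 of the 26 NFO peaks (69.2%, 48.2 to 85.7), against 70.4% and 69.3% of the lists. The palindrome CAGCTG, which is 1 of the forms of CANNTG, was found in 1 and 4 peaks, against 13.6% and 10.1%, and CAGATG or its complement CATCTG, also forms of it, in 5 and 5, against 18.9% and 17.4%. The SOX core ACAATG or its complement CATTGT was found in 2 and 2, against 11.3% and 12.1%. The intervals for the 10 genes include the shares of the lists for each of these motifs, and a match is a stretch of letters and not a binding site.

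In the RIP-Seq lists, none of the 10 regulators had an OLIG2 site, against 2.53% of protein-coding genes, and none had an IgG site. The lists hold 101310 and 83195 sites on 1961 and 1971 transcripts.

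Other genes of oligodendrocyte differentiation were read from a list of 20 activators and 20 inhibitors. Of these 40 genes, 39, 38 and 35 had H3K4me3 at a promoter in NSCs, OPCs and NFOs, against 64.3%, 60.7% and 43.6% of protein-coding genes, and 9, 11 and 8 had H3K27me3, against 15.1%, 16.4% and 9.56%. K4 only genes were 29, 29 and 31, against 52.1%, 49.5% and 38.9%, and bivalent genes 5, 2 and 0, against 5.29%, 2.99% and 1.56%. An OLIG2 peak was listed in the gene or within 50 kb for 24 of the 40 in OPCs, against 42.3%, and for 26 in NFOs, against 65.1%, a share near that of all genes. In all, 8 of the 40 were bivalent or K27 only in some stage.

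Among the activators, Sox10, the factor that drives myelin genes with MYRF, was bivalent in NSCs on 201 bp of H3K4me3 and 411 bp of H3K27me3, and K4 only with 6551 bp in OPCs and 1111 bp in NFOs. Nkx6-2 had both marks in NSCs (2569 and 2967 bp) and H3K27me3 alone in OPCs (4506 bp) and NFOs (6759 bp). Sox17 carried 10046 to 13554 bp of H3K27me3 in the 3 libraries, and Sp7 was K27 only in OPCs and NFOs, on 172 and 792 bp. Among the inhibitors, Lef1 and Tcf7, which like Tcf7l2 are effectors of WNT signalling, were bivalent in NSCs, on 12706 and 305 bp of H3K27me3. Lingo1 was K27 only in NFOs, and Zfp521 was bivalent in OPCs. With peaks under 1 kb that hold a run left out, 2 of the 40 were bivalent in NSCs, Nkx6-2 and Lef1, while Sox10 had no listed peak there and Tcf7 was K4 only.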

How the data were processed

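The authors aligned the ChIP-Seq reads with Bowtie2 (mm10), used those that mapped to 1 place, and called peaks with SPP for OLIG2 and with MACS2 in broad mode for histone marks, without blacklisted regions. Peaks were called per library. For each peak the deposited lists give a fold enrichment over control, a ratio, and the −log10 of the FDR and, for histone marks, of the p-value, from the authors' peak callers. The number of reads is unknown, so intervals on shares cover counting error only. For RIP-Seq, the deposited ASPeak lists of the authors hold tag counts per site without normalization, p-values, and the RPKM of the transcript. A site counted where OLIG2 tags exceeded 2 times the IgG tags, at an RPKM above 1 and p-value below 0.01.

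All listed peaks were used, since the lists also hold peaks below the limits of the methods (FDR below 0.05, fold enrichment above 3.5 for histone marks and 5 for OLIG2), which were an alternative. Genes came from GENCODE M21, and sequences from RefSeq's GRCm38.p6, which is mm10. Overlapping H3K4me3 and H3K27me3 peaks (1 bp or more) made a bivalent domain. A bivalent gene had no peak of 1 mark alone within 2 kb of a TSS, and a gene with a mixture was called mixed. Shares carry exact binomial (Clopper-Pearson) 95% intervals. With 1 library per group no test was made. The state calls were checked on simulated peaks. The 10 genes and all lists were chosen with earlier results of these data known. Named beside the 10 were genes whose body or promoter (1 kb) holds one of the OLIG2 peaks, and the first 8 pathway genes that were bivalent or K27 only in any stage. The A and T runs were searched for after the sequences had been seen. The 3 input libraries were not used, and for NSCs no OLIG2 list was analysed here. A few items are not reported here. Tools were pysam 0.24.0, SciPy 1.17.1, Matplotlib 3.10.9, pandas 2.3.3 and NumPy 2.4.6 under Python 3.11.15.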

Additional observations from a re-analysis of the deposited data

How the results depend on the processing

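Across 39 results, 157 of 205 alternative values stayed within 1.5 times the main count or within its interval, and 48 moved. The 157 include main counts of 0 that stayed 0, as for K27 only members. For RIP sites both alternatives were stricter, so a count of 0 could not change. The counts of members with H3K4me3 and of K4 only members stayed within 1.5 times in every alternative run.

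The alternatives on A and T runs, on H3K27me3 width and on OLIG2 peaks off H3K4me3 were chosen after seeing the data. With OLIG2 peaks that hold a run left out, the peaks at the members numbered 2 in OPCs and 4 in NFOs, the members with a peak within 50 kb 1 and 3, the members with a peak in the gene 1 and 1, and shared peaks 0. With histone peaks under 1 kb that hold a run left out, or with H3K27me3 peaks of at least 1 kb alone, members with H3K27me3 were 0 in NSCs and 0 in NFOs, bivalent members in NSCs 0, and mixed members in NFOs 0. Both alternatives remove, by construction, the narrow peaks behind these calls.

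At a histone fold enrichment above 5, members with H3K27me3 were 1 in NSCs and 0 in NFOs, 1 was bivalent in NSCs, 0 were mixed in NFOs, and 2, 1 and 3 had no mark in NSCs, OPCs and NFOs. The limits of the methods left 2 members without a mark in NSCs, and 0 with H3K27me3 and 0 mixed in NFOs. With 1 TSS per gene, members with H3K27me3 were 0 in OPCs and 0 in NFOs and mixed members 0 and 0, because the internal start sites of Tcf7l2 drop out. A TSS window of 1 kb left 1 member with H3K27me3 in NSCs, and a window of 5 kb gave 2 in OPCs with 2 mixed.

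At an OLIG2 fold enrichment above 10, peaks at the members were 9 in OPCs and 12 in NFOs. A flank of 10 kb gave 7 and 13 peaks and 5 members with a peak in NFOs, and a flank of 100 kb gave 2 shared peaks. Over all genes of the annotation in place of protein-coding genes, the shares with H3K4me3 in NSCs, OPCs and NFOs were 34.7%, 31% and 23%, those with H3K27me3 11.1%, 11% and 5.94%, those with an OLIG2 peak within 50 kb in OPCs and NFOs 32.7% and 54.7%, and those with one in the gene 6.66% and 12%.

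Single libraries, an unknown depth and lists cut by a peak caller limit every comparison between stages. A mark below the caller's limit is not in the lists. No paired analysis was possible because each group holds 1 library.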

Other observations

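Over the whole OLIG2 lists, peaks without a run of at least 10 A or T held E-boxes somewhat more often than peaks with one. In OPCs, CANNTG was found in 75.8% of 2129 peaks without a run (73.9 to 77.6) and in 68.2% of 5255 with one (66.9 to 69.4), and CAGCTG in 18.8% (17.2 to 20.6) and 11.5% (10.6 to 12.4). In NFOs, CANNTG was found in 72% of 4931 peaks (70.7 to 73.3) and 68.2% of 11980 (67.4 to 69), and CAGCTG in 11.2% (10.3 to 12.1) and 9.68% (9.16 to 10.2). A run takes up part of a peak of fixed width, and its part in these differences was not tested. The median fold enrichment was 8.05 with a run and 7.97 without one in OPCs, and 8.58 and 7.02 in NFOs. By this median, peaks with a run were not lower in either list. Whether fold enrichment at these peaks reflects OLIG2 binding was not tested.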
